A study of Mus musculus with 6 samples.

Results

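Lysosomal transcripts were followed in CD11c+ dendritic cells of the mouse spleen, which present antigen to T cells, with and without the kinase TAK1, which the gene Map3k7 encodes. The set held 36 genes for lysosomal membrane proteins, cathepsins and other peptidases, glycosidases, lipid-degrading enzymes and their cofactors, the proton pump (V-ATPase), and regulators. Members were taken by gene symbol, with the probe set of highest mean over the 6 arrays standing for a gene. Of the 36 genes, 35 had a probe set carrying that 1 symbol, among 17097 genes on the array. Neu1, a lysosomal sialidase, was not analysed here.

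Cells came from the spleens of C57Bl/6 mice, wild type (WT in the labels) or Map3k7CreER, and each group had 3 samples with 1 Affymetrix array each. Both groups had received tamoxifen for 3 days, which activates the CreER recombinase and so deletes Map3k7 in the second group, called knockout here. The age of the mice, the promoter driving CreER and whether each sample was a separate mouse are not given in the sources used here, so each p-value reflects the spread among 3 samples a group, which may be technical. The cells were sorted for CD11c by flow cytometry. Values are RMA levels on a log2 scale, on which the array medians lay between 3.77 and 3.81 and a difference of 1 is a 2-fold change. Differences are knockout minus wild type, tested with limma over 45037 probe sets, and a gene passed at a Benjamini-Hochberg adjusted p under 0.05. Map3k7 itself fell from 6.65 ± 0.06 (SD, 3 arrays) to 4.05 ± 0.41 (SD, 3 arrays), a difference of -2.60 (limma adjusted p = 0.00128). Where its probes lie relative to the deleted part was not analysed here. All 14 measured dendritic cell markers, Itgax (CD11c) among them, read above the array median in mean. So did 10512 of the 17097 genes, and all but 2 of 17 macrophage and 2 of 10 monocyte markers. That level therefore does not set dendritic cells apart.

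Lysosomes are acidic organelles in which proteins, glycans and lipids taken up by the cell are degraded. The V-ATPase pumps protons into them, and most of their enzymes work only at that acid pH. In dendritic cells the cathepsins and legumain also cut internalised antigens and the invariant chain, which frees MHC class II molecules to load peptides. The transcription factor TFEB switches on many lysosomal genes together through a short E-box, CACGTG, in their promoters.

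Knockout cells had more mRNA for 2 of the 35 measured lysosomal genes, Scarb2 and Ctsc, and less for 0 of them at the threshold. Scarb2, the membrane receptor that carries glucocerebrosidase to the lysosome, rose 1.57-fold, and Ctsc, the dipeptidyl peptidase cathepsin C, rose 1.59-fold. The 2 genes are 5.71% of the members, where 1.67% of all genes were called, 1.08% higher and 0.591% lower. Most peptidases stood in the same direction without passing, while glycosidases and V-ATPase subunits stood on both sides of 0. The difference was positive for 23 of 35 members (65.7%), beside 46.1% of all genes, and the members' median was 0.16, beside -0.0163 over all genes. That median ran from 0.13 without wild-type replicate 2 to 0.27 without knockout replicate 2. The count of 2 fell to 0 without wild-type replicate 1 or 2 or knockout replicate 2 or 3, to 1 without wild-type replicate 3, and was 3 without knockout replicate 1, while it was 7 with each gene's probe sets averaged.

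At an unadjusted p under 0.05, 14 of 35 members (40%) were higher and 2 lower, beside 8.41% and 8% of all genes. All 3 knockout arrays lay above all 3 wild-type arrays for 17 members (48.6%), beside 10.6% of all genes, and below them for 2, beside 10.6%. All but 1 of the members, Ctsk, read above the array median in mean, and among the 10512 genes above that level 14.6% had knockout arrays wholly higher, 13% wholly lower and 47.8% a positive difference. Of those genes 12.8% were higher at an unadjusted p under 0.05, and 1.74% passed as higher and 0.961% as lower. The members share arrays and were chosen with earlier results of these data known, so these shares are a description. In sorted bulk samples, fewer cells of a type and less RNA per cell cannot be told apart.

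**Figure D1:**
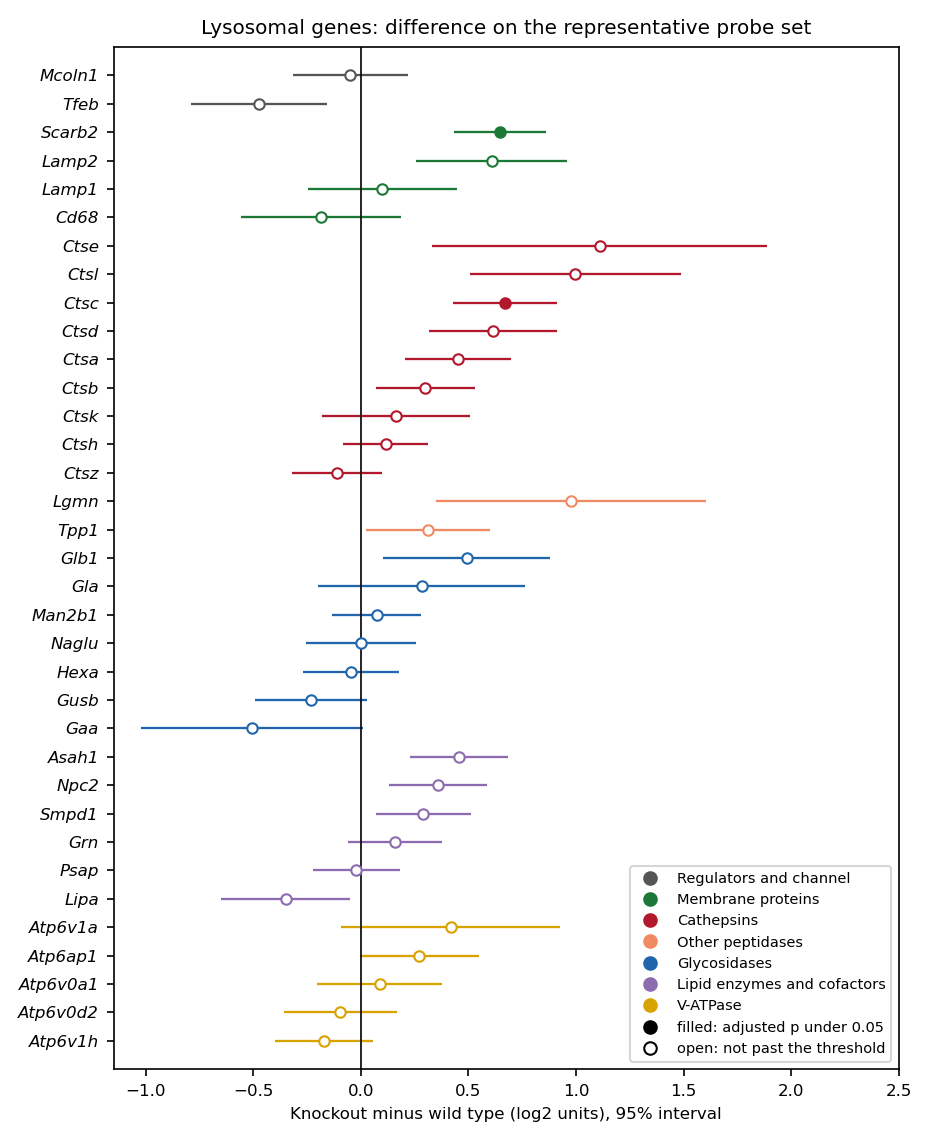
Knockout minus wild-type difference in log2 units for the 35 measured lysosomal genes, each on its representative probe set, with the 95% interval from limma as a bar. Colours mark the role and filled points an adjusted p under 0.05. Scarb2 and Ctsc are filled, and 8 of the 9 cathepsins lie to the right of 0.

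Promoter windows are shown here because the genes that passed can be set beside others that carry the E-box. RefSeq windows on GRCm38.p6, from 250 bases before to 50 after a transcription start, were at hand for 30 of the 36 genes (35 windows). CACGTG, which reads the same on both strands, was found in 11 of the 35 windows (31.4%) and in 7.15% of all 32851 windows in the table. The longer GTCACGTG, which contains it, was found on either strand in 8 (22.9%) and in 2.25% of all windows. A match of letters is a description, not a measured binding site. The windows of Scarb2 and Ctsc, the 2 genes that passed, hold no CACGTG. Those of cathepsin D (Ctsd) and the lysosomal calcium channel mucolipin (Mcoln1) hold 2 each, shown in capitals with all else in lower case.
Ctsc (chr7:88277835-88278134, plus strand): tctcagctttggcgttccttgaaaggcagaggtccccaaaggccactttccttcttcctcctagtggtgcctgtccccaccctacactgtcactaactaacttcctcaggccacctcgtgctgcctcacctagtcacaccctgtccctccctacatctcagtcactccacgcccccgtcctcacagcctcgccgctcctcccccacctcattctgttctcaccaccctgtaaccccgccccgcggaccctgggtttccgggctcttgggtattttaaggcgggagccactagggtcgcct
Scarb2 (chr5:92505608-92505907, minus strand): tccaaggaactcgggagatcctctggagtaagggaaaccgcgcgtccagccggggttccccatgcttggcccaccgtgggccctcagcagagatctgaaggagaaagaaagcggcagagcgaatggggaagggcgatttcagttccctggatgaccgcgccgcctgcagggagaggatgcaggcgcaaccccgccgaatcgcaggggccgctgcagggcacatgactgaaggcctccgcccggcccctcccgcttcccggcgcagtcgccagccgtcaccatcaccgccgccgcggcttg
Ctsd (chr7:142387778-142388077, minus strand): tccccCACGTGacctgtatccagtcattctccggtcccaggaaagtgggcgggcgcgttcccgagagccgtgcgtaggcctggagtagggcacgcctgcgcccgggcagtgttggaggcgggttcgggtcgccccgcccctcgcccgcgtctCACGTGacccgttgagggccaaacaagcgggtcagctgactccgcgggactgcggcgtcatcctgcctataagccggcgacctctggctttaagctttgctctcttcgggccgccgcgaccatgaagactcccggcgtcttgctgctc
Mcoln1 (chr8:3500269-3500568, plus strand): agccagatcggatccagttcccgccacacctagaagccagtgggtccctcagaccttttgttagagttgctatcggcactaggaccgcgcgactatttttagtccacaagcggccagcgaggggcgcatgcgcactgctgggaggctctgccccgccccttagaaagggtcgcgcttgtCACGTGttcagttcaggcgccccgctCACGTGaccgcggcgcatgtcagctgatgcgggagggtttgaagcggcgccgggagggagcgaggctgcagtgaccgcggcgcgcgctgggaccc

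The 11 measured members with CACGTG in a window were Ctsa, Ctsd, Ctsl, Lgmn, Glb1, Gla, Gaa, Naglu, Lamp1, Mcoln1 and Atp6v1a. Their differences ran from -0.51 to 1.00 with a median of 0.42, and 8 were positive. The 18 measured members whose windows lack it ran from -0.47 to 0.67 with a median of 0.12, and 11 were positive. The ranges overlap, and both genes that passed are among these 18.

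Among the regulators, Tfeb itself was not higher. Its arrays read 6.64, 6.59 and 6.98 in wild type and 6.41, 6.29 and 6.10 in knockout cells. Every knockout array was below every wild-type array, but the difference of -0.47 (SE 0.14, 95% interval -0.79 to -0.16, limma adjusted p = 0.185) did not pass. Mcoln1, the channel that releases calcium from the lysosome, read 6.39, 6.21 and 6.46 in wild type and 6.47, 6.26 and 6.19 in knockout cells. These values overlap throughout, with a difference of -0.0487 (95% interval -0.32 to 0.22). The TFEB relatives in the list of sorting and biogenesis genes, none past the threshold, stood at -0.48 for Tfe3, 0.37 for Mitf and 0.87 for Tfec (limma adjusted p = 0.269, 0.376 and 0.128).

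Of 4 membrane proteins 1 rose. Scarb2 read 8.81, 8.81 and 8.80 in wild type and 9.44, 9.37 and 9.56 in knockout cells. The wild-type arrays were nearly identical (SD 0.00797) and every knockout array was well above them, with a difference of 0.65 (SE 0.09, limma adjusted p = 0.0218). Its second probe set stood at 0.28 (limma adjusted p = 0.268), also with no overlap. The call of Scarb2 was lost, at differences of 0.60 to 0.69, without wild-type replicate 1 (limma adjusted p = 0.0975), 2 (0.0861) or 3 (0.0587) and without knockout replicate 2 (0.0804) or 3 (0.0629).

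Lamp2, a heavily glycosylated protein that lines the lysosomal membrane and serves chaperone-mediated autophagy, read 9.97, 9.70 and 10.0004 in wild type and 10.26, 10.46 and 10.78 in knockout cells. The groups did not overlap, yet the difference of 0.61 (SE 0.15, limma adjusted p = 0.126) did not pass on this, the brightest of its 3 probe sets. A second Lamp2 probe set did pass, at 1.16 (SE 0.17, limma adjusted p = 0.0226), going from 8.82, 8.48 and 8.77 to 9.57, 9.82 and 10.16. The third stood at 0.92 (limma adjusted p = 0.059). Lamp1, its close relative, stood at 0.10 (95% interval -0.25 to 0.44), and the macrosialin gene Cd68, a marker of phagocytes, at -0.19 (-0.56 to 0.19). Both overlapped between groups, and Lamp1 ran from 0.015 to 0.26 with 1 array left out.

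**Figure D2:**
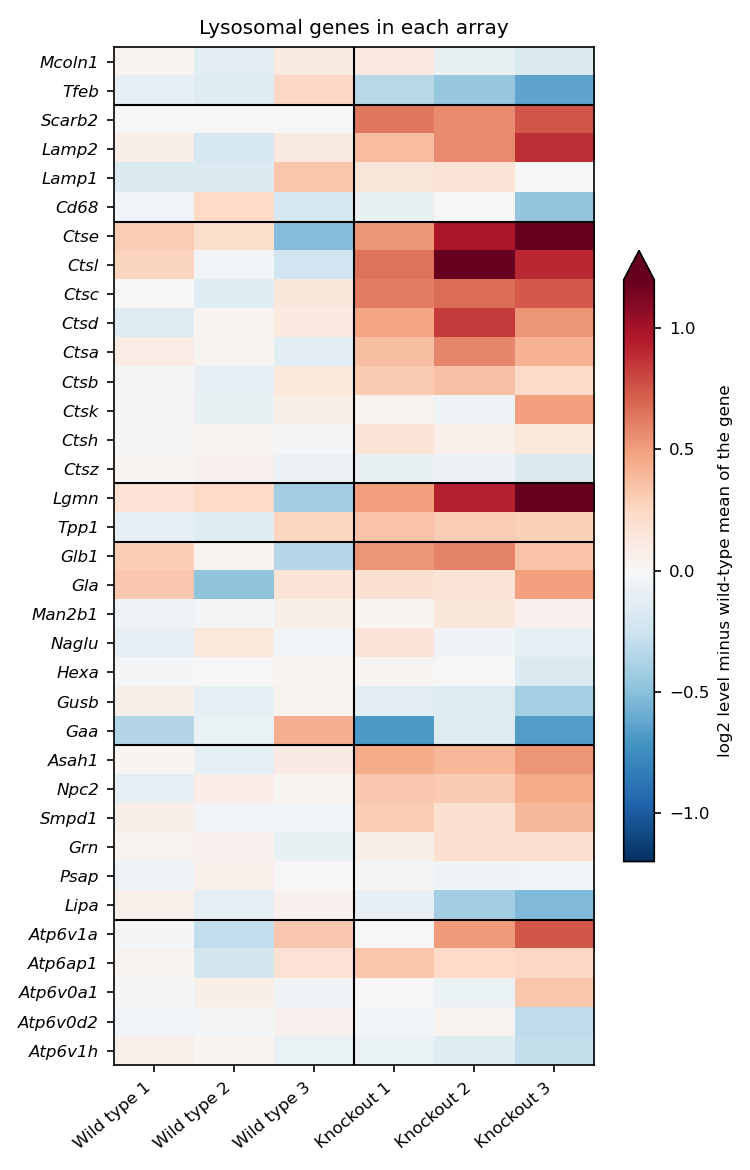
Level of each lysosomal gene in each array minus the mean of its 3 wild-type arrays, in log2 units, with the role groups separated by lines. Values above 1.2 take the darkest red. Scarb2, Lamp2 and most cathepsins are red in all 3 knockout arrays, while Tfeb and Lipa are blue in all 3.

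The cathepsins, the main lysosomal proteases, had a median difference of 0.45 over 9 genes, of which 1 rose, 0 fell and 8 did not pass. In 7 of the 9 (77.8%, beside 10.6% of all genes) every knockout array lay above every wild-type array. Ctsc, which activates the serine proteases of granules, read 11.44, 11.30 and 11.58 in wild type and 12.05, 12.11 and 12.18 in knockout cells. The lowest knockout array was above the highest wild-type array, and the difference was 0.67 (SE 0.10, limma adjusted p = 0.0295). Its other 2 probe sets stood at 0.90 and 0.69 (limma adjusted p = 0.336 and 0.236), with wild-type replicate 2 lowest on both, at 7.01 and 6.24. The call of Ctsc was lost as the mean of its probe sets (0.75, limma adjusted p = 0.118). It was also lost without wild-type replicate 1 (limma adjusted p = 0.12) or 2 (0.106) and without knockout replicate 2 (0.139) or 3 (0.0853), at differences of 0.60 to 0.67.

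Cathepsin D, the aspartic protease that also activates other cathepsins, read 7.59, 7.77 and 7.86 in wild type and 8.22, 8.58 and 8.27 in knockout cells. The groups were apart, and the difference of 0.61 (SE 0.13, 95% interval 0.32 to 0.91, limma adjusted p = 0.0753) did not pass. It passed with array weights (0.69, limma adjusted p = 0.047) and in the fit on means of probe sets (0.0452). Ctsl and Ctse, chosen for print after their values were seen, had the largest differences of the family. Ctsl, a cysteine protease, read 8.60, 8.30 and 8.09 in wild type and 8.99, 9.76 and 9.23 in knockout cells. That is a difference of 1.00 (95% interval 0.51 to 1.49, limma adjusted p = 0.0791), or 0.51 with its 2 probe sets averaged, of which the other, at a difference of 0.0294, read under the array median. It passed with trended and robust variances (limma adjusted p = 0.0376) and without knockout replicate 1 (0.0465).

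Ctse, an aspartic protease found in endosomes, spread more widely. It read 5.74, 5.64 and 4.91 in wild type and 5.97, 6.42 and 7.24 in knockout cells. The lowest wild-type value and the highest knockout value both came from replicate 3, and the difference of 1.11 had an interval from 0.33 to 1.89 (limma adjusted p = 0.204). Its SD of 0.65 among knockout arrays was the largest of any member. Ctsa, the carboxypeptidase that protects other hydrolases, stood at 0.45 (limma adjusted p = 0.107).

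Ctsb, a cysteine protease, stood at 0.30 on its brightest probe set, from 10.77, 10.70 and 10.92 to 11.11, 11.15 and 11.02 (limma adjusted p = 0.246). All 4 of its probe sets were higher with no overlap, from 0.30 to 0.86, and the largest passed (limma adjusted p = 0.0143). Ctsh, an aminopeptidase, stood at 0.11, Ctsz at -0.11 and Ctsk at 0.16 from a level of 3.67, at or under the array median. Of the 5 other cathepsins, which include Ctss, the main invariant chain protease of dendritic cells, 0 passed. Ctss stood at 0.12 (95% interval -0.09 to 0.32, limma adjusted p = 0.70) from a wild-type level of 12.99, and Ctso at -0.14 (limma adjusted p = 0.753).

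Both other peptidases were higher in each knockout array than in any wild-type array, as were 10.6% of all genes, and neither passed. Legumain (Lgmn), which cuts after asparagine and matures other cathepsins, read 8.17, 8.23 and 7.59 in wild type and 8.49, 8.92 and 9.51 in knockout cells. Wild-type replicate 3 was lowest and knockout replicate 3 highest, as for Ctse, and the difference was 0.98 (SE 0.27, 95% interval 0.35 to 1.60, limma adjusted p = 0.166). Tpp1, the tripeptidyl peptidase lost in a childhood neuronal storage disease, read 9.11, 9.09 and 9.49 against 9.57, 9.52 and 9.52, a difference of 0.31 (limma adjusted p = 0.359). Its dimmer probe set went from 6.18, 5.53 and 6.09 to 7.06, 7.10 and 6.96 and passed at 1.11 (limma adjusted p = 0.0291). Counting every probe set, 5 of the 64 passed as higher and 0 as lower, from 5 genes (Scarb2, Lamp2, Ctsb, Ctsc and Tpp1). A gene with several probe sets has more chances to pass. The like share over all probe sets was not counted here, so this count is a description.

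**Figure D3:**
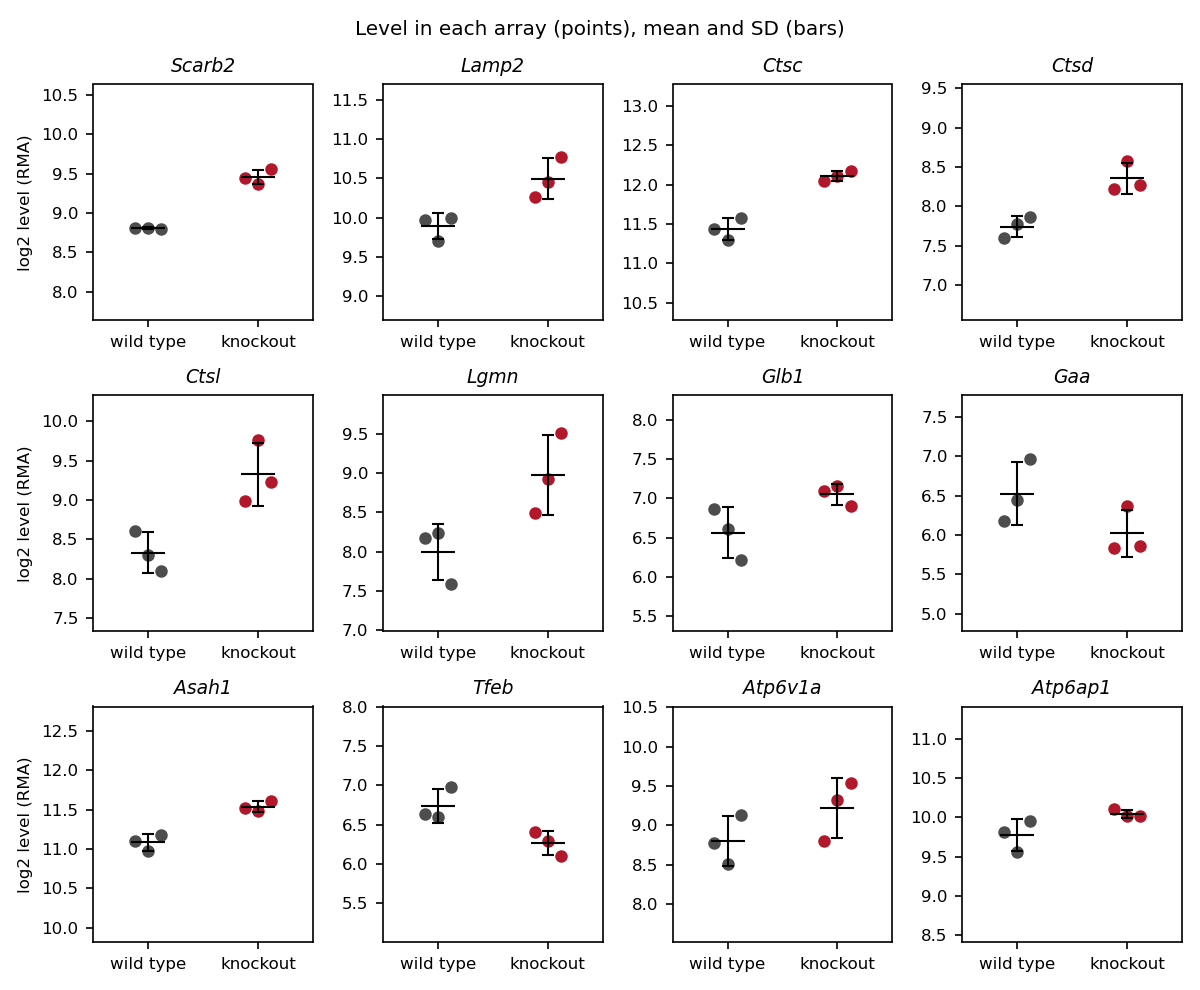
RMA log2 level in each array for 12 lysosomal genes on their representative probe sets, with the 3 wild-type arrays in grey, the 3 knockout arrays in red and the mean with its SD in black. Each axis spans the same number of log2 units. The 12 genes were picked by hand, and among them only Gaa and Atp6v1a overlap between the groups. Of all 35 measured members 16 overlap, and of all genes 10.6% were wholly higher and 10.6% wholly lower.

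The glycosidases, which trim sugars from glycoproteins, glycolipids and glycosaminoglycans, stood on both sides of 0. Of 7 measured, 0 passed, 3 differences were positive and 4 negative, and the median of -0.0005 ran from -0.0767 to 0.056 with 1 array left out. Glb1, the lysosomal beta-galactosidase, read 6.86, 6.61 and 6.22 in wild type and 7.10, 7.16 and 6.90 in knockout cells. Its groups stood apart, at a difference of 0.49 (95% interval 0.10 to 0.88, limma adjusted p = 0.263). Gaa, the acid alpha-glucosidase that breaks down glycogen, went the other way, from 6.17, 6.45 and 6.96 to 5.84, 6.37 and 5.86. Those groups overlap, and the difference was -0.51 (95% interval -1.02 to 0.00998, limma adjusted p = 0.418).

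Gusb, the beta-glucuronidase, was lower in each knockout array than in any wild-type array, at -0.23 (limma adjusted p = 0.477). Gla, the alpha-galactosidase A, stood at 0.28 with wild-type replicate 2 apart at 7.24 from 8.05 and 7.88. The 95% intervals spanned 0 for Man2b1, an alpha-mannosidase (-0.14 to 0.28), Hexa, the beta-hexosaminidase alpha subunit (-0.27 to 0.17), and Naglu, which degrades heparan sulfate (-0.26 to 0.26).

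The enzymes and cofactors of lipid breakdown had a median difference of 0.22 over 6 genes, with 0 past the threshold. Asah1, the acid ceramidase, read 11.11, 10.97 and 11.18 in wild type and 11.53, 11.48 and 11.61 in knockout cells. Its groups were well apart, at a difference of 0.46 (SE 0.10, 95% interval 0.23 to 0.68, limma adjusted p = 0.081). It passed with trended and robust variances (limma adjusted p = 0.0364) and in the fit on means of probe sets (0.0445). Npc2, which hands cholesterol to the lysosomal membrane, read 11.56, 11.77 and 11.69 against 11.99, 11.99 and 12.12, a difference of 0.36 (limma adjusted p = 0.16), and all 3 of its probe sets were higher, from 0.36 to 0.61. As the mean of its probe sets it passed (0.46, limma adjusted p = 0.0409).

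Smpd1, the acid sphingomyelinase, stood at 0.29 with no overlap on the brighter probe set and at -0.0301 on the other. Lipa, the acid lipase that frees cholesterol from its esters, was negative on all 3 probe sets, at -0.35, -0.25 and -0.71 (limma adjusted p = 0.313, 0.732 and 0.112). Psap, the precursor of the saposins that present sphingolipids to their hydrolases, stood at -0.0225 (95% interval -0.22 to 0.18) and Grn, progranulin, at 0.16 (-0.06 to 0.38).

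No call was made for the proton pump. Of 5 V-ATPase members 0 passed, with a median of 0.0873, which was -0.00428 without probe sets that can match several transcripts. Atp6ap1, an accessory subunit of the pump, read 9.81, 9.56 and 9.95 in wild type and 10.10, 10.01 and 10.02 in knockout cells. Its groups did not overlap, at a difference of 0.27 (95% interval -0.00328 to 0.55, limma adjusted p = 0.415). Atp6v1a, the catalytic subunit that hydrolyses ATP, read 8.78, 8.50 and 9.13 against 8.80, 9.32 and 9.55. These values overlap on the brighter probe set (0.42, limma adjusted p = 0.522), but not on the other (0.54, limma adjusted p = 0.0699).

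Atp6v1h, a regulatory subunit, stood at -0.17 (95% interval -0.40 to 0.06). Atp6v0a1 and Atp6v0d2, subunits of the membrane part of the pump, read 4.41 and 3.92 in wild type, beside array medians up to 3.81. Their differences of 0.0873 and -0.0959 changed sign without knockout replicate 3 (-0.0358 and 0.00671). Among the 11 other measured V-ATPase subunits 0 passed and 7 were negative, with a median of -0.0625. The smallest p there belonged to Atp6v0a2 (0.35, limma adjusted p = 0.633) and Tcirg1 (0.34, limma adjusted p = 0.642), 2 forms of the large membrane subunit.

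**Figure D4:**
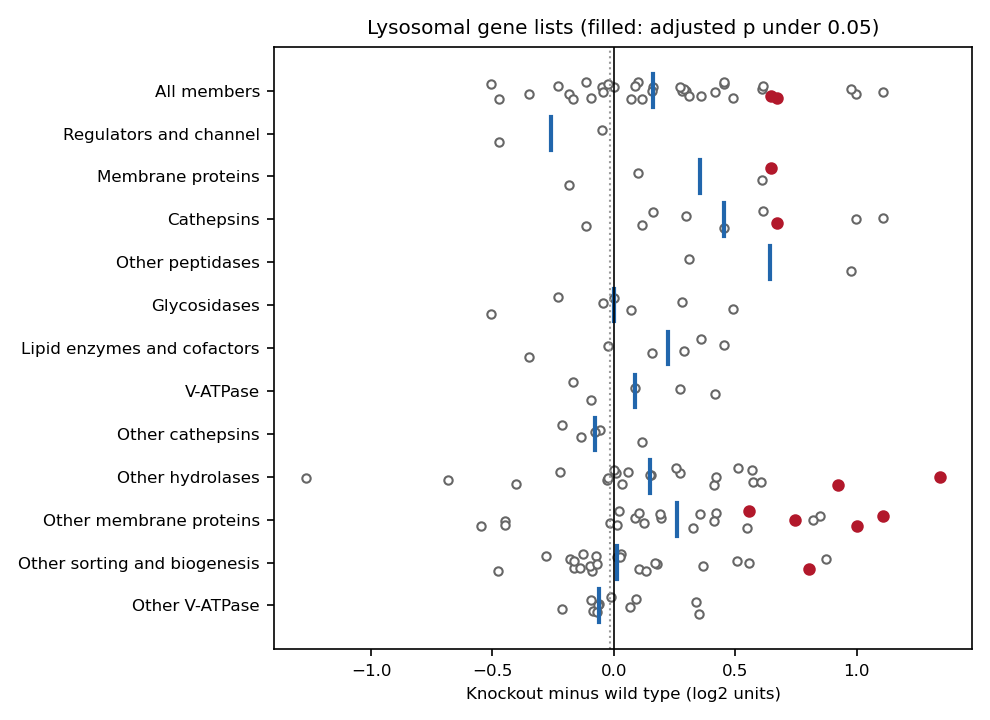
Knockout minus wild-type differences in log2 units for all lysosomal members, for each role and for 5 further lists of lysosomal genes. Each point is a gene on its representative probe set, red where it passed the threshold, the blue bar is the list's median and the dotted line the median of all genes. Red points occur among the membrane proteins, the cathepsins and 3 of the further lists, all to the right of 0.

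Of 83 further lysosomal genes measured, 7 rose and 0 fell (8.43%, beside 1.08% of all genes called higher), with a median of 0.0666. Among 22 other hydrolases, Acp5, the tartrate-resistant acid phosphatase, rose by 0.92 (limma adjusted p = 0.00427) and Dnase2a, the acid DNase that digests engulfed DNA, by 1.34 (limma adjusted p = 0.0468). Acp5 was the most even of these, at 10.78, 10.84 and 10.87 in wild type and 11.72, 11.74 and 11.80 in knockout cells. Among 22 other membrane proteins 4 rose. They were the calcium-releasing channel Tpcn1 (1.00, limma adjusted p = 0.00754), the arginine sensor Slc38a9 (1.11, 0.0285), the peptide transporter Slc15a3 (0.75, 0.0376) and Laptm4a (0.56, 0.0377).

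Among 23 sorting and biogenesis genes, Sort1, a receptor that carries enzymes to the lysosome, rose by 0.80 (limma adjusted p = 0.0287), but its other 2 probe sets, at wild-type levels of 4.08 and 3.90, stood at 0.042 and 0.00681. As the mean of probe sets Sort1 stood at 0.28 (limma adjusted p = 0.299) and Tpcn1 at 0.34 (0.085). With 1 array left out Acp5 and Tpcn1 passed in all 6 fits. Slc38a9, Slc15a3 and Dnase2a kept their call only without knockout replicate 1, Sort1 only without wild-type replicate 3, and Laptm4a in 0 fits, with limma adjusted p up to 0.142, 0.162, 0.19, 0.114 and 0.156.

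Markers of other cells that a CD11c gate can hold were read as well. Of 17 macrophage markers 4 rose (23.5%, beside 1.08% of all genes called higher), namely Mrc1, Cd163, Cd5l and Mertk, while 0 fell and 13 did not pass. Knockout arrays were wholly higher for 7 of the 17 (41.2%) and wholly lower for 1 (5.88%), each beside 10.6% of all genes. The list's median was 0.29, with 14 differences positive and 3 negative. The summed linear signal of these markers was 2555 to 2904 in wild type and 4409, 4221 and 3003 in knockout replicates 1, 2 and 3. The lysosomal members' summed signal was 46933 to 47989 in wild type and 52527, 53736 and 53047 in the same knockout replicates. Their median deviation from the wild-type mean was 0.15, 0.17 and 0.25 there, beside 0.48, 0.57 and 0.21 for the macrophage markers. C1qa, C1qb, C1qc and Fcgr1 of the same list stood at 0.70, 0.84, 0.68 and 0.81 without passing (limma adjusted p = 0.184, 0.25, 0.19 and 0.0721). Adgre1, a macrophage surface receptor, stood at -0.28 and Spic, the factor of red pulp macrophages, at 0.00474, while Marco and Timd4 read at or under the array median. Cd5l lost its call without any 1 wild-type array or knockout replicate 2 (limma adjusted p up to 0.102), Mertk without wild-type replicate 1 or 2 or knockout replicate 2 (0.0709) and Cd163 without knockout replicate 2 (0.0651). The part of these cells in the lysosomal differences was not tested.

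Of 14 dendritic cell markers 1 rose, Itgam (CD11b, 1.31, limma adjusted p = 0.0466). With 1 array left out Itgam kept its call only without knockout replicate 1 (limma adjusted p elsewhere up to 0.168). None of these 14 fell, but 11 differences were negative, and the list's median was -0.22. For 5 of the 14 (35.7%, beside 10.6% of all genes) the knockout arrays were wholly lower. They were Cd8a (-1.47, limma adjusted p = 0.062), Esam (-1.10, 0.0926), Xcr1 (-0.81, 0.14), the transcription factor Zbtb46 (-0.75, 0.0621) and Irf8 (-0.59, 0.121). Cd8a, Xcr1 and Irf8 mark the cross-presenting subset of dendritic cells, and Esam a CD11b+ subset. Batf3, Sirpa and Irf4 of the same list overlapped between groups, at -0.16, -0.21 and -0.23. The knockout arrays were wholly higher for 2 of the 14 (14.3%, beside 10.6% of all genes), Itgam and Flt3 (0.35, limma adjusted p = 0.284). The list's summed signals were 46538 to 53395 in wild type and 44628 to 46254 in knockout cells. Of 10 neutrophil markers 0 passed and 5 read at or under the array median. Their sum was 219 to 356 in wild type and 370 to 1488 in knockout cells. It was highest in knockout replicate 2, where S100a8 and S100a9 read 9.29 and 9.48. These 2 genes stood at 2.28 and 1.53 (limma adjusted p = 0.147 and 0.343), while 3 of the 10 differences were negative. In the lists for monocytes, plasmacytoid dendritic cells, B cells and T and NK cells 0 genes passed. Knockout arrays were wholly lower for 4 of 10 monocyte genes (40%), 1 of 7 B cell genes (14.3%) and 2 of 8 T and NK cell genes (25%). They were so for 4 of 6 erythroid genes (66.7%), beside 10.6% of all genes. Wholly higher were 2 of 10 neutrophil genes (20%) and 1 of 8 T and NK cell genes (12.5%), also beside 10.6%. Of 6 erythroid genes 1 fell, Hbb-b2 (-3.01, limma adjusted p = 0.0325), on a probe set that can match several transcripts. With 1 array left out Hbb-b2 kept its call only without wild-type replicate 3 or knockout replicate 1. Without such probe sets Hbb-b2 stood at -0.12 (limma adjusted p = 0.847). The part of these cells was not tested either.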

How the data were processed

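Log2 expression values of 6 arrays were used as deposited. Per the submitters' processing notes, the authors used RMA (background correction, quantile normalization, summary by probe set) in Expression Console 1.1. RMA gives no detection call, and folds of dim genes are understated. The log2 scale was read from the values (2.58 to 13.91), and 0 pairs of arrays were identical. Precision is set by the number of arrays, 3 a group.

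Of 45141 probe sets, 104 controls were left out. The platform annotation gave 28898 probe sets 1 symbol, 551 several and 15588 none, and only the first kind was named. The model was fitted with limma 3.58.1 under R 4.3.3 (lmFit, eBayes, no covariates) and adjusted by Benjamini-Hochberg over 45037 probe sets. The step was tested on simulated data. The members, lists and rules were chosen with earlier results of these data known. Values in every array were given for members past the threshold and for the 2 of smallest p in each role group, and genes past the threshold, or else the 2 of smallest p, were named from other lysosomal lists. Members outside that rule, Ctsl, Ctse and Ctsb among them, and the second probe sets were given after their values were seen. Promoters came from RefSeq (GRCm38.p6). Coordinates of probe sets were not used. Alternatives were filters on dim or cross-matching probe sets, further centring or quantile normalization, means of probe sets, other variances, array weights, a replicate block, other thresholds and leaving out each array. Figures used matplotlib 3.10.9 in Python 3.11.15.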

Additional observations from a re-analysis of the deposited data

How the results depend on the processing

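In 16 recomputations the number of lysosomal genes called lower stayed at 0. The number called higher was 2 in the reported fit, 7 on means of probe sets (Asah1, Ctsb, Ctsd, Lamp2, Npc2, Scarb2 and Tpp1), 4 with trended and robust variances, 3 with array weights (Ctsd added), 5 at an adjusted p under 0.1, 0 at an adjusted p under 0.01, and 0 to 3 with 1 array left out. Of the 7, Asah1 and Ctsd have 1 probe set each, so averaging did not change their values. All genes called higher ranged from 48 to 248 with 1 array left out, against 184 in the reported fit. They were 278 on means of probe sets, 242 with trended and robust variances and 254 with array weights. At an adjusted p under 0.1 they were 374, and at one under 0.01 they were 55. The median over the members was 0.22 without probe sets under the median probe set and 0.13 to 0.27 with 1 array left out. For cathepsins it was 0.53 without those probe sets, 0.51 on means of probe sets and 0.39 to 0.50 with 1 array left out. For the V-ATPase it was -0.00428 without cross-matching probe sets, 0.14 on means of probe sets, 0.0405 with array weights and 0.00671 to 0.17 with 1 array left out. Of 488 recomputed member differences 12 changed sign, in 7 members and none larger than 0.0627. They were Naglu with median centring (0.0143) or array weights (0.0295) and, with 1 array left out, Naglu (-0.0767 to 0.0627), Mcoln1 (-0.13 to 0.0115), Hexa (-0.0871 to 0.0179), Psap (-0.0515 to 0.0075), Atp6v0d2 (-0.16 to 0.00671), Ctsk (down to -0.00124) and Atp6v0a1 (down to -0.0358). The other 28 members kept their sign in each.

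Deviations of same-numbered arrays of the 2 groups had correlations of 0.0542, 0.13 and 0.32, and those of differently numbered arrays -0.28 to 0.22. These values do not settle whether the numbers pair the samples. The labels state no pairing, and the reported fit held no replicate term. With the replicate block Scarb2 and Ctsc were again the 2 members called, and all genes called went from 184 higher and 101 lower to 292 and 250. Dnase2a lost its call there (1.34, limma adjusted p = 0.056).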

Other observations

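The lysosome is also the platform on which the growth kinase mTORC1 senses amino acids, and its anchoring complex was read from genes of the sorting and biogenesis list after their values were seen. The 5 Ragulator subunits Lamtor1 to Lamtor5 all stood below 0, from -0.18 to -0.0894, and 0 passed with limma. For each of these 5 subunits the groups overlapped and the limma interval spanned 0. Among all genes 46.1% had a positive difference, so values below 0 were common. Rragc, a GTPase of the same complex, stood at -0.14 (limma adjusted p = 0.635). Slc38a9, the membrane protein that signals arginine to this complex, rose on 2 of its 4 probe sets (1.11 and 0.65). The tethering subunits Vps11, Vps16, Vps33a, Vps39 and Vps41, which bring lysosomes to fuse with endosomes, stood between -0.07 and 0.17, and 0 passed.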
